A study of Rattus norvegicus with 9 samples.

Results

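Fatty acid synthesis and desaturation was followed in rat dorsal root ganglia through 10 genes: the regulator Srebf1 and the enzymes Acly, Me1, Fasn, Elovl6, Scd, Scd2, Fads1, Fads2 and Dgat2. The members are all probe sets annotated to 1 of these symbols alone, 15 of the 15866 non-control probe sets of the array and 10 of its 10411 single-symbol genes. All 15 passed the filter on low signal and were among the 9520 probe sets tested. The ganglia came from lumbar levels L4 to L6 of Sprague-Dawley rats. The groups were streptozotocin-injected rats given FK1706 (STZ FK1706), streptozotocin-injected rats given vehicle (STZ vehicle) and rats with no streptozotocin given vehicle (normal). Streptozotocin (STZ) destroys pancreatic beta cells and is used to model diabetes, and FK1706 is a ligand of immunophilins, for which the labels give no dose. Tissue was collected after 1, 2 or 3 weeks of dosing, and equal amounts of RNA from 5 rats were pooled for each array, so each group had 3 arrays, 1 a week. Every p-value is thus set against scatter left among pools after a model was fitted, not against that of single rats. For differences between groups the model held group and week, so week effects shared by the groups were taken out.

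In fatty acid synthesis, cytosolic citrate is split to acetyl-CoA, which is carboxylated and built into palmitate with NADPH as the reductant. Palmitate is then elongated, desaturated and esterified into membrane lipids or triglyceride. In liver and fat these steps are induced together by insulin through the transcription factor SREBP-1, and in peripheral nerve they supply the lipids of myelin, which Schwann cells make around sensory axons. A ganglion pool holds neurons, satellite glia, Schwann cells, fibroblasts and blood cells together, and fewer cells of a type cannot be told apart from less RNA per cell.

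The members were on average below normal in both STZ groups, by small amounts, and no member passed the test at an adjusted p under 0.05 in any comparison. For STZ FK1706 minus normal, the log2 difference was negative for 13 of 15 member probe sets, with a median of -0.21. For STZ vehicle minus normal it was negative for 14 of 15, with a median of -0.18. For STZ FK1706 minus STZ vehicle it was negative for 10 of 15, with a median of -0.07. The median over all 9520 tested probe sets was 0.00 in each of these comparisons, and the share with a negative difference was 48.8% for STZ FK1706 minus normal, 48.6% for STZ vehicle minus normal and 50.1% for STZ FK1706 minus STZ vehicle. Differences from normal reached -0.50 for Dgat2 in STZ FK1706 and -0.50 for Srebf1 1388426_at in STZ vehicle. Me1 1370870_at, Elovl6, Scd, Fads1 and Fads2 lay between -0.41 and -0.18 in both STZ groups, while Acly stood at 0.06 in STZ FK1706 and 0.10 in STZ vehicle, and Scd2 1367668_a_at at 0.02 and -0.07. Both comparisons with normal share the normal arrays, so they are not independent of each other. Earlier results of these data were known when the members were chosen, so their distance from all probe sets is descriptive.

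**Figure D1:**
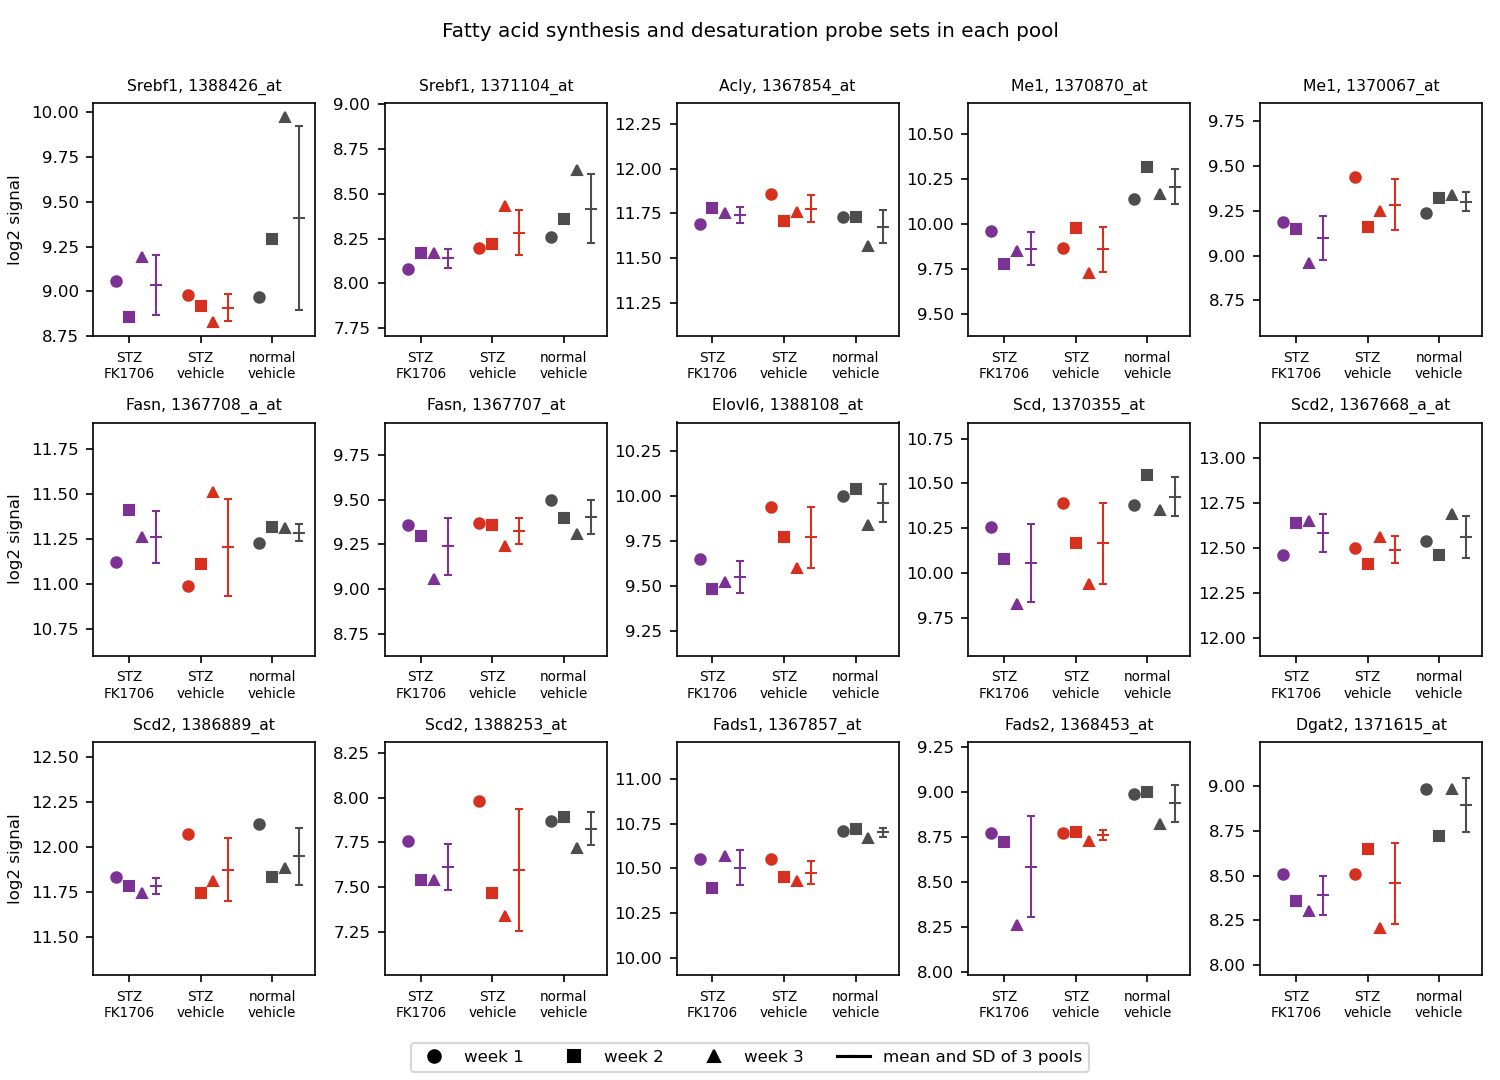
Log2 signal of the 15 member probe sets in each pool (vertical axis, quantile-normalized log2 signal; all panels span the same number of log2 units). STZ FK1706, STZ vehicle and normal pools run from left to right, marker shape gives the week, and bars give the mean and SD of the 3 pools. Dgat2 and Me1 1370870_at show all 6 STZ pools below the 3 normal pools, whereas Acly and Scd2 1367668_a_at overlap in every group.

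Promoter windows of 300 bases, 250 before to 50 after a transcription start, were available in the RefSeq table of build GRCr8 for 7 of the 10 members, as 8 windows, with Srebf1 having a pair. Fasn, Elovl6 and Dgat2 had no entry. Below are the Srebf1 window at a start inside the gene, shown because its product regulates the rest, the Me1 window, shown because Me1 was among the members farthest from normal, and the windows of the neighbouring genes Scd and Scd2, shown because they are close relatives covered by 4 probe sets. Each is read 5′ to 3′ on the gene's own strand, minus for Srebf1, Me1 and Scd and plus for Scd2, with matches to CCAAT, the box bound by NF-Y, in capitals on either strand (ATTGG on the opposite one).
Srebf1, chr10:45518961-45519260: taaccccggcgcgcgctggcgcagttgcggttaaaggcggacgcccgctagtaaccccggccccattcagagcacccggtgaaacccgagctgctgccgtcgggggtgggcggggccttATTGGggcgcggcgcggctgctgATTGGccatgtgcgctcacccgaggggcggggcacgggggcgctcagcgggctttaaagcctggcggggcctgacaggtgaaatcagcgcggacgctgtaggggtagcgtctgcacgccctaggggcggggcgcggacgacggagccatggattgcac
Me1, chr8:96540195-96540494: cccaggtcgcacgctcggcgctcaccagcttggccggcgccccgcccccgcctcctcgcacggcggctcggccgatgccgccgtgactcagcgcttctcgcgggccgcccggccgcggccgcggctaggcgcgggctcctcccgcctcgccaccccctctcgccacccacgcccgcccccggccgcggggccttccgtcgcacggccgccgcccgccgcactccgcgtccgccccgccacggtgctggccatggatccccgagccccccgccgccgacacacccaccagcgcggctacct
Scd, chr1:253231682-253231981: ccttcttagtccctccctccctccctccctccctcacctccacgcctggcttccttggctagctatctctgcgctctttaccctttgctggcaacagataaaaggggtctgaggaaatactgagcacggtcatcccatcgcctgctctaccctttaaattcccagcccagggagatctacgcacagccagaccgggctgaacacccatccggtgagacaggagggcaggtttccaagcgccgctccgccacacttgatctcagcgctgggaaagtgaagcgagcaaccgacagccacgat
Scd2, chr1:253118127-253118426: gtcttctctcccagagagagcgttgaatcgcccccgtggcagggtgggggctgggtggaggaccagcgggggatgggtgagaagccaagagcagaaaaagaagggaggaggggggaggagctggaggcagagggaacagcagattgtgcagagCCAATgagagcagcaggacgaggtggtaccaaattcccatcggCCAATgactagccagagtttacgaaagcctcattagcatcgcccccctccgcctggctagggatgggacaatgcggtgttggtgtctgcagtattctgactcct

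The CCAAT box was present in 5 of the 8 member windows, those of Srebf1 (both), Acly, Scd2 and Fads1, against 37.5% of all 33469 windows in the table. In the Srebf1 window printed above it began at positions -131 and -108 from the start, and in the Scd2 window at -97 and -54. The Me1, Scd and Fads2 windows held no match. TCACNCCAC, the core of a sterol regulatory element, was in 0 of the 8 member windows and in 1.12% of all windows, and CACGTG, an E-box, was in 0 of the 8 and in 6.42% of all, both searched on either strand. Among 15 windows of cholesterol synthesis genes, 13 held CCAAT and 0 held TCACNCCAC. Since the other motifs had no match in these windows, no CCAAT match overlapped one. Only exact matches to the stated letters were counted, so a variant of a motif would be missed and 0 matches do not show that a site is absent. These counts describe letters in a short window and do not locate binding.

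Srebf1 encodes SREBP-1, the membrane-bound transcription factor that, once cleaved, induces genes of fatty acid synthesis. The gene lies on chromosome 10 at 45507152 to 45529164 (GRCr8). Its probe set 1388426_at had log2 signals of 9.06, 8.86 and 9.19 in the STZ FK1706 pools of weeks 1, 2 and 3, of 8.98, 8.92 and 8.83 in the STZ vehicle pools and of 8.97, 9.29 and 9.97 in the normal pools. The 3 groups were level in week 1, and the normal pools of weeks 2 and 3 stood above every STZ pool. STZ vehicle was -0.50 from normal (SE 0.178, 95% interval -0.89 to -0.11, limma adjusted p = 0.474), made up of differences of 0.01, -0.37 and -1.14 in weeks 1, 2 and 3. STZ FK1706 was -0.37 from normal (SE 0.178, adjusted p = 0.632), with 0.09, -0.43 and -0.78 by week. The linear trend over weeks differed by -0.58 log2 units a week between STZ vehicle and normal (limma adjusted p = 1) and by -0.44 between STZ FK1706 and normal (adjusted p = 0.996). Both had an unadjusted slope p under 0.05, as did 3.91% of all tested probe sets in the first of these comparisons and 4.83% in the second, and 0% passed the adjusted test in either or in STZ FK1706 against STZ vehicle. The size of the Srebf1 difference rests on the last week, since the STZ vehicle difference was -0.24 without the week 3 normal array, -0.28 without the week 3 STZ vehicle array and -0.18 without all arrays of week 3. Without all arrays of week 1 it was -0.76. It did not pass in any of these fits.

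The other Srebf1 probe set, 1371104_at, had signals of 8.08, 8.17 and 8.17 in STZ FK1706 pools, 8.20, 8.22 and 8.43 in STZ vehicle pools and 8.26, 8.36 and 8.63 in normal pools. The STZ FK1706 pools were lowest in each week and did not overlap either other group, and the normal pool was highest in each week. STZ FK1706 was -0.27 from normal (SE 0.113, adjusted p = 0.589) and -0.14 from STZ vehicle (adjusted p = 0.999), and STZ vehicle was -0.13 from normal (adjusted p = 0.763). The pair of Srebf1 probe sets correlated across the 9 arrays with r = 0.69, and with r = 0.59 after week means had been removed. Both had their highest value in the normal pool of week 3, and they differed in the order of the STZ groups.

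**Figure D2:**
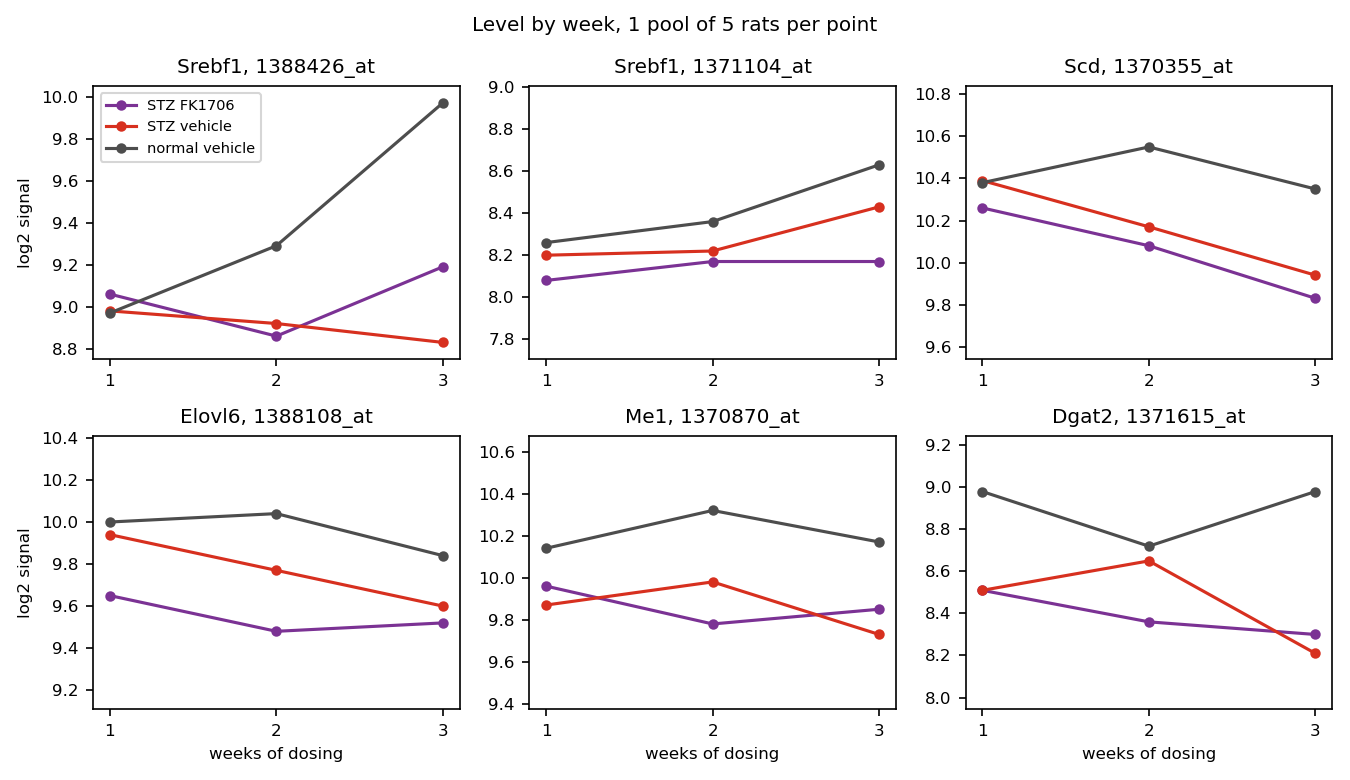
Log2 signal by week of dosing (horizontal axis, weeks 1 to 3) for both Srebf1 probe sets, Scd, Elovl6, Me1 1370870_at and Dgat2, with 1 pool of 5 rats per point and a line per group. The normal line for Srebf1 1388426_at runs from 8.97 to 9.97 over the 3 weeks, and both STZ lines for Scd lie lower in week 3 than in week 1.

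Of the enzymes that supply precursors, Acly, ATP citrate lyase, makes cytosolic acetyl-CoA (chromosome 10, 85912402 to 85964605). Its signals were 11.69, 11.78 and 11.75 in STZ FK1706 pools, 11.86, 11.71 and 11.76 in STZ vehicle pools and 11.73, 11.73 and 11.57 in normal pools. The groups overlapped, with STZ FK1706 0.06 above normal (95% interval -0.09 to 0.21, adjusted p = 0.836) and STZ vehicle 0.10 above it (interval -0.05 to 0.25, adjusted p = 0.697). On the deposited scale, without normalization, the STZ FK1706 difference was -0.11, so its direction depends on the scaling.

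Me1, cytosolic malic enzyme, makes NADPH for the synthase by oxidising malate (chromosome 8, 96429057 to 96540244). Probe set 1370870_at gave 9.96, 9.78 and 9.85 in STZ FK1706 pools, 9.87, 9.98 and 9.73 in STZ vehicle pools and 10.14, 10.32 and 10.17 in normal pools. All 6 STZ pools lay below all 3 normal pools, and the STZ groups overlapped each other. The difference from normal was -0.35 in STZ FK1706 (SE 0.0922, 95% interval -0.55 to -0.15, adjusted p = 0.33) and -0.35 in STZ vehicle (SE 0.0922, same interval, adjusted p = 0.341), a 1.28-fold lower mean in each. STZ FK1706 minus STZ vehicle was 0.00 (interval -0.20 to 0.20, adjusted p = 0.999). The other probe set, 1370067_at, gave 9.19, 9.15 and 8.96 in STZ FK1706 pools, 9.44, 9.16 and 9.25 in STZ vehicle pools and 9.24, 9.32 and 9.34 in normal pools. It had STZ FK1706 below normal without overlap (-0.20, adjusted p = 0.64) but STZ vehicle level with normal (-0.01, interval -0.24 to 0.22, adjusted p = 0.982). The probe sets of Me1 thus disagree about STZ vehicle, and correlated with only r = 0.35 across the arrays.

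Fasn, fatty acid synthase, is the multienzyme that builds palmitate (chromosome 10, 106570415 to 106588581). Probe set 1367708_a_at gave 11.12, 11.41 and 11.26 in STZ FK1706 pools, 10.99, 11.11 and 11.51 in STZ vehicle pools and 11.23, 11.32 and 11.31 in normal pools. Probe set 1367707_at gave 9.36, 9.30 and 9.06 in STZ FK1706 pools, 9.37, 9.36 and 9.24 in STZ vehicle pools and 9.50, 9.40 and 9.31 in normal pools. Groups overlapped on both. The first was -0.03 from normal in STZ FK1706 (adjusted p = 0.955) and -0.09 in STZ vehicle (adjusted p = 0.823), and the second -0.16 (adjusted p = 0.64) and -0.08 (adjusted p = 0.818) in the same comparisons. The 2 probe sets correlated with r = -0.31 across the 9 arrays and ran opposite ways over the weeks, at 0.24 and -0.21 for week 3 minus week 1 (adjusted p = 0.344 and 0.359). No single Fasn pattern can be given from them.

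Elovl6 encodes the elongase that extends palmitate to stearate (chromosome 2, 220738095 to 220845528). Its signals were 9.65, 9.48 and 9.52 in STZ FK1706 pools, 9.94, 9.77 and 9.60 in STZ vehicle pools and 10, 10.04 and 9.84 in normal pools. STZ FK1706 was the lowest group in every week and normal the highest. The difference of STZ FK1706 from normal was -0.41 (SE 0.089, interval -0.61 to -0.21, adjusted p = 0.268), a 1.33-fold lower mean without overlap, and by p it ranked 27 among the 9520 probe sets. STZ vehicle was -0.19 from normal (adjusted p = 0.585) with overlap. STZ FK1706 minus STZ vehicle was -0.22 (SE 0.089, interval -0.42 to -0.03, adjusted p = 0.999), with -0.30, -0.29 and -0.08 by week. It was the member with the smallest p between the STZ groups, and those groups still overlapped, since the week 3 STZ vehicle pool lay below the week 1 STZ FK1706 pool.

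Scd and Scd2 encode stearoyl-CoA desaturases, which place the first double bond in stearate and palmitate. They are neighbours on chromosome 1, Scd at 253218968 to 253232101 and Scd2 at 253118377 to 253131436, and their transcripts are alike enough that probes may not separate them fully. Scd (1370355_at) gave 10.26, 10.08 and 9.83 in STZ FK1706 pools, 10.39, 10.17 and 9.94 in STZ vehicle pools and 10.38, 10.55 and 10.35 in normal pools. STZ vehicle was level with normal in week 1 and below it in weeks 2 and 3, while STZ FK1706 was the lowest group in each week. STZ FK1706 was -0.37 from normal (SE 0.0961, interval -0.58 to -0.16, adjusted p = 0.33) with no overlap, and -0.12, -0.47 and -0.52 by week. STZ vehicle was -0.26 from normal (SE 0.0961, adjusted p = 0.479), with 0.01, -0.38 and -0.40 by week. Between the STZ groups the difference was -0.11 (interval -0.32 to 0.10, adjusted p = 0.999).

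Scd2, the isoform abundant in nervous tissue, was covered by 3 probe sets. Probe set 1367668_a_at lay between 12.46 and 12.65 in STZ FK1706 pools, between 12.41 and 12.56 in STZ vehicle pools and between 12.46 and 12.69 in normal pools. Its difference from normal was 0.02 in STZ FK1706 (interval -0.12 to 0.16, adjusted p = 0.945) and -0.07 in STZ vehicle (interval -0.21 to 0.07, adjusted p = 0.786). The difference between Scd and Scd2 was not itself tested. Probe set 1386889_at gave 11.83, 11.78 and 11.74 in STZ FK1706 pools, 12.07, 11.74 and 11.81 in STZ vehicle pools and 12.13, 11.83 and 11.88 in normal pools. Its STZ FK1706 pools did not overlap the normal pools (-0.16, SE 0.0675, adjusted p = 0.587), although the gap between the nearest pools was no wider than rounding. Probe set 1388253_at, whose mean signal was near the filter (percentile 46.4 of all probe sets), was -0.21 from normal in STZ FK1706 (interval -0.54 to 0.12, adjusted p = 0.713) and -0.23 in STZ vehicle (interval -0.56 to 0.09, adjusted p = 0.667), with overlap in both. It correlated with the Scd probe set at r = 0.83 and with Scd2 1367668_a_at at r = -0.23.

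Fads1 and Fads2, the delta-5 and delta-6 desaturases, act on the polyunsaturated chains made from dietary linoleate and linolenate, and lie near each other on chromosome 1 (Fads1 at 216252605 to 216267618, Fads2 at 216132277 to 216172190). Fads1 (1367857_at) gave 10.55, 10.39 and 10.57 in STZ FK1706 pools, 10.55, 10.45 and 10.43 in STZ vehicle pools and 10.71, 10.72 and 10.67 in normal pools. Its normal pools had an SD of 0.0246, the smallest for normal pools among the 15 probe sets, and stood above all 6 STZ pools. The difference from normal was -0.20 in STZ FK1706 (SE 0.0759, adjusted p = 0.544) and -0.22 in STZ vehicle (SE 0.0759, adjusted p = 0.464), and 0.02 between the STZ groups (interval -0.14 to 0.19). Fads2 (1368453_at) gave 8.77, 8.72 and 8.26 in STZ FK1706 pools, 8.77, 8.78 and 8.73 in STZ vehicle pools and 8.99, 9 and 8.82 in normal pools. All 6 STZ pools again lay below the normal pools, with the week 3 STZ FK1706 pool far below the rest. STZ FK1706 was -0.35 from normal (SE 0.115, adjusted p = 0.474) and STZ vehicle -0.18 (SE 0.115, adjusted p = 0.674). Between the STZ groups the Fads2 difference was -0.17 (interval -0.43 to 0.08, adjusted p = 0.999), of which week 3 gave -0.47 and weeks 1 and 2 gave 0.00 and -0.05.

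Dgat2 encodes a diacylglycerol acyltransferase, which joins the last fatty acid to triglyceride (chromosome 1, 162866237 to 162896655). Its signals were 8.51, 8.36 and 8.30 in STZ FK1706 pools, 8.51, 8.65 and 8.21 in STZ vehicle pools and 8.98, 8.72 and 8.98 in normal pools. All 6 STZ pools were below all 3 normal pools, though in week 2 STZ vehicle and normal were only 0.07 apart. STZ FK1706 was -0.50 from normal (SE 0.131, interval -0.79 to -0.21, adjusted p = 0.33), a 1.42-fold lower mean and the widest member difference in that comparison. STZ vehicle was -0.44 from normal (SE 0.131, interval -0.73 to -0.15, adjusted p = 0.425), a 1.35-fold lower mean. Between the STZ groups the difference was -0.07 (interval -0.36 to 0.22, adjusted p = 0.999).

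**Figure D3:**
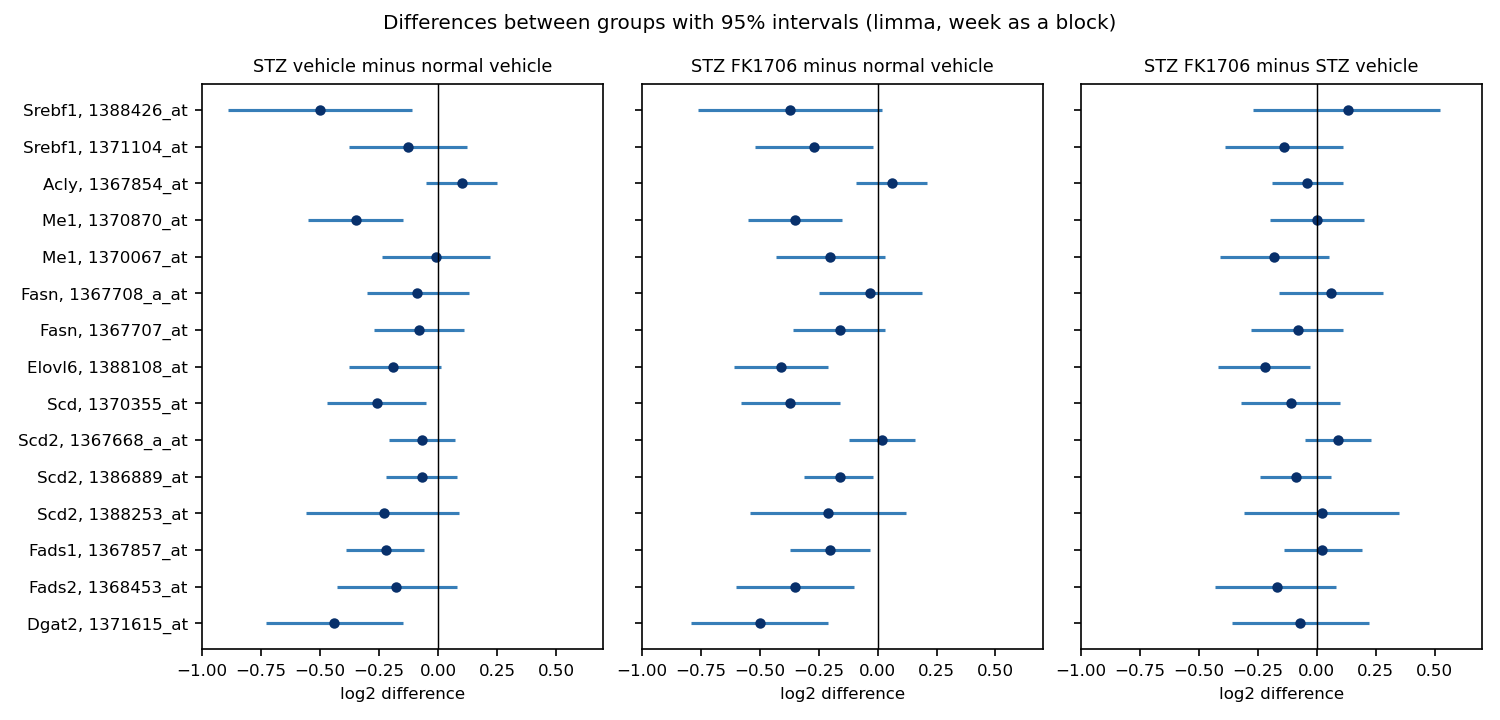
Log2 difference of each member probe set (horizontal axis, log2 units, point) with its 95% interval (line) from the limma fit with week as a block, for STZ vehicle minus normal, STZ FK1706 minus normal and STZ FK1706 minus STZ vehicle from left to right. Against normal, Dgat2, Me1 1370870_at, Scd and Fads1 have intervals wholly below 0 in both STZ groups, while between the STZ groups Elovl6 alone does.

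As a group, the members were read against the same counts over all 9520 tested probe sets. Because the members were chosen with earlier results of these data known, an excess over those counts is a description and not an independent test. In STZ FK1706 minus normal, 0 of 15 passed the adjusted limma test (0% of all probe sets did), 8 had an unadjusted p under 0.05 with a negative difference (4.44% of all), 11 were negative in all 3 weeks (13.9% of all) and 9 had STZ FK1706 pools wholly below normal pools (5.99% of all). In STZ vehicle minus normal, 0 of 15 passed (0.063% of all did), 5 had a negative difference at unadjusted p under 0.05 (4.53%), 9 were negative in all 3 weeks (15.3%) and 4 did not overlap normal (6.63%), namely Me1 1370870_at, Fads1, Fads2 and Dgat2. On the deposited scale, where all probe sets together lay a median of -0.17 from normal in STZ FK1706, 4 members (Elovl6, Dgat2, Scd and Me1 1370870_at) passed in that comparison, among 89 probe sets in all. Probe sets of 1 gene are not independent, and with 1 probe set per gene 6 of 10 genes in STZ FK1706 and 5 of 10 in STZ vehicle were below normal at unadjusted p under 0.05.

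Setting STZ FK1706 against STZ vehicle addresses whether FK1706 dosing altered these genes in STZ rats. Here 0 of 15 members passed, as did 0% of all probe sets, and 1 member, Elovl6, had an unadjusted p under 0.05 with a negative difference, against 1.85% of all. Negative differences in all 3 weeks were found for 5 of 15 (11.8% of all), and 1 of 15, Srebf1 1371104_at, did not overlap (3.53% of all). In no member was STZ FK1706 nearer to normal than STZ vehicle by a difference that passed the test. With the STZ groups averaged and set against normal, 14 of 15 differences were negative (48.9% of all), 0 passed (0.084% of all did), 7 had an unadjusted p under 0.05 (5.5%), 10 were negative in all 3 weeks (15.5%) and 4 had all 6 STZ pools below all normal pools (2.35%). In that average Me1 1370870_at was -0.35 (SE 0.0799, adjusted p = 0.177), Dgat2 -0.47 (SE 0.114, adjusted p = 0.204), Elovl6 -0.30 (SE 0.077, adjusted p = 0.232) and Scd -0.31 (SE 0.0832, adjusted p = 0.254).

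Over the weeks, the median member difference from normal was -0.14, -0.28 and -0.32 for STZ FK1706 in weeks 1, 2 and 3, and -0.06, -0.22 and -0.20 for STZ vehicle. No trend in these medians was tested. None of the 15 members passed the F test for a difference between weeks, with 0.0525% of all probe sets passing, while 10.7% of all had an unadjusted p under 0.05. Among the members 2 did at the unadjusted level, Scd2 1386889_at (limma adjusted p = 0.328) and Scd (adjusted p = 0.392). Scd averaged 10.34, 10.27 and 10.04 in weeks 1, 2 and 3, and week 3 was below week 1 in all 3 groups. From week 1 to week 3 the normal pools went only from 10.38 to 10.35. The STZ FK1706 pools went from 10.26 to 9.83 and the STZ vehicle pools from 10.39 to 9.94.

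Correlations across the 9 arrays describe which members varied together, and group and week differences are part of them. Elovl6 and Scd correlated with r = 0.89, Me1 1370870_at and Fads1 with 0.87, Me1 1370870_at and Dgat2 with 0.85, Scd and Fads2 with 0.84, and Fasn 1367707_at and Fads2 with 0.93. After week means had been removed these were 0.88, 0.96, 0.87, 0.77 and 0.96. How close Srebf1 stood to the enzymes depended on the weeks. Srebf1 1388426_at correlated with Fads1 at 0.60, Me1 1370870_at at 0.59, Dgat2 at 0.57, Scd at 0.32 and Fads2 at 0.05, and after week means had been removed at 0.72, 0.80, 0.79, 0.81 and 0.41. Srebf1 1371104_at correlated with Scd at 0.19 and Fads2 at 0.28, and after week means had been removed at 0.88 and 0.94. Not all enzymes followed. After week means had been removed, Scd2 1367668_a_at and Fasn 1367708_a_at correlated with Srebf1 1371104_at at 0.02 and 0.19. With Srebf1 1388426_at they correlated at 0.22 and -0.28. Group differences remain in all values without week means. Srebf1 1388426_at ran opposite to Acly, at -0.78 and, without week means, -0.74. Outside the members, the genes most like each by Pearson r over the 9 arrays included Mpc1 for Me1 (0.972), Mgll for Fads1 (0.943), Sh2b3 for Dgat2 (0.948), Taf13 for Elovl6 (0.956), Ebag9 for Scd (0.953), Cul2 for Fads2 (0.966), Rnase4 for Srebf1 (0.95), Baiap2 for Fasn (0.974), Thy1 for Acly (0.924) and Lonp2 for Scd2 (0.886). Each is the highest r in a search over all tested single-symbol probe sets of other genes. With 9 arrays such a search can give high values for unrelated genes, and these were not tested.

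Other genes of the pathway were counted from a list of 39, of which 25 were tested, with 1 probe set per gene. Their median difference was -0.09 for STZ FK1706 minus normal, -0.06 for STZ vehicle minus normal and -0.02 between the STZ groups, and 0 of 25 passed in any of these. Against normal, 2 in STZ FK1706 and 1 in STZ vehicle had a negative difference at unadjusted p under 0.05, and 0 and 1 a positive one. Elovl1, an elongase of very long chains, was -0.24 in STZ FK1706 (adjusted p = 0.585) and -0.32 in STZ vehicle (adjusted p = 0.437). Slc25a1, the mitochondrial citrate carrier, was -0.19 in STZ FK1706 (adjusted p = 0.594) and -0.17 in STZ vehicle (adjusted p = 0.586). Insig1, which retains the SREBP complex in the endoplasmic reticulum, was 0.19 above normal in STZ vehicle (adjusted p = 0.549) and -0.18 between STZ FK1706 and STZ vehicle (adjusted p = 0.999).

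Neighbouring lipid programmes had medians nearer 0 than the members. With 1 probe set per gene the members had a median of -0.35 for STZ FK1706 minus normal and -0.21 for STZ vehicle minus normal. The 17 cholesterol synthesis genes had -0.05 and 0.02 in the same comparisons, with Mvd, mevalonate decarboxylase, at 0.30 and 0.38 (adjusted p = 0.542 and 0.425) and Cyp51, lanosterol demethylase, at -0.21 and -0.27 (adjusted p = 0.56 and 0.437). The 15 tested triglyceride synthesis and storage genes had -0.03 and -0.07, with Mgll, monoglyceride lipase, at -0.20 in both (adjusted p = 0.594 and 0.549). The 24 tested fat oxidation genes had 0.03 and 0.00, with Ppard, a nuclear receptor that induces fat oxidation, at 0.38 and 0.27 (adjusted p = 0.476 and 0.584) and Cpt1c, a neuronal carnitine palmitoyltransferase relative, at 0.50 and 0.63 (adjusted p = 0.594 and 0.464). In these 3 lists 0 genes passed in any comparison, and the difference between lists was not tested. Members and lists alike were chosen with earlier results of these data known, which limits what their medians can show.

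**Figure D4:**
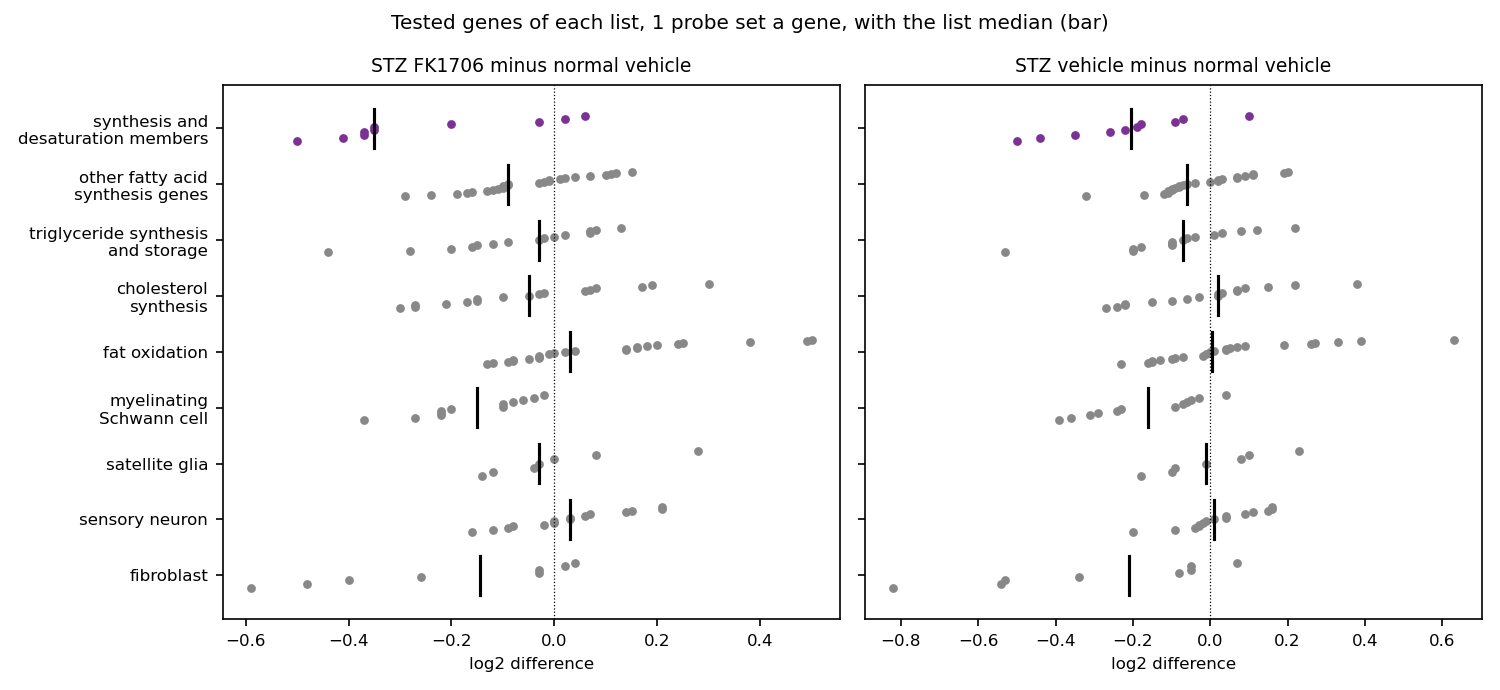
Log2 difference from normal (horizontal axis, log2 units) of each tested gene of the member list and of other lipid and cell type lists, for STZ FK1706 (left) and STZ vehicle (right), with 1 point per gene and a bar at each list's median. The member medians are -0.35 and -0.21, the cholesterol synthesis medians -0.05 and 0.02, and the myelinating Schwann cell medians -0.15 and -0.16.

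Markers of the cell types in a ganglion were set beside the members. Sensory neuron markers were well above the filter (15 of 15 measured genes tested), with medians of 0.03 for STZ FK1706 minus normal and 0.01 for STZ vehicle minus normal. Satellite glia markers had medians of -0.03 and -0.01, and blood and immune markers of -0.02 and -0.13, in the same comparisons. By week the blood and immune median was -0.03, -0.07 and 0.24 in STZ FK1706 and -0.15, -0.22 and -0.61 in STZ vehicle. In STZ vehicle 6 of the 8 tested blood and immune genes were below normal and 2 above, and 0 passed. Among the 6, Np4, Tpsb2 and S100a9 were -1.65, -1.87 and -1.12 from normal in week 3. Myelinating Schwann cell markers were below normal in 12 of 12 tested genes in STZ FK1706 (median -0.15) and in 11 of 12 in STZ vehicle (median -0.16), and 0 of 12 passed. Among them Cnp, a myelin phosphodiesterase, was -0.37 in STZ FK1706 and -0.36 in STZ vehicle (adjusted p = 0.321 and 0.333). Others lay closer to normal, with Mbp at -0.10 and -0.06, Pmp22 at -0.10 and -0.03 and Drp2 at -0.06 and 0.04 in the same groups. The summed signal of 13 such genes ran from 43070 to 45160 in STZ FK1706 pools, from 41190 to 46730 in STZ vehicle pools and from 46810 to 48010 in normal pools. That of the members, 1 probe set per gene, ran from 16850 to 17660 in STZ FK1706, from 16600 to 17440 in STZ vehicle and from 18250 to 18980 in normal. Both sums thus had all 6 STZ pools below the normal pools, as did 2.35% of all tested probe sets taken singly. Such sums weigh the highest signals most. These were Scd2, Acly and Fasn among the members and Pmp22, Mbp and S100b among the Schwann cell markers. For the Schwann cell sum the nearest pools were almost level, at 46730 in STZ vehicle and 46810 in normal. For the member sum they were 17660 in STZ FK1706 and 18250 in normal. The part of Schwann cell content and of blood and immune cell content in the member differences was not tested.

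Fibroblast markers had medians of -0.14 in STZ FK1706 and -0.21 in STZ vehicle against normal, but were not lower throughout. Dcn, Lum, Mgp and Pdgfra lay between -0.03 and 0.04 in STZ FK1706 and between -0.08 and 0.07 in STZ vehicle. Of the other fibroblast markers, Col1a1 and Col3a1, fibrillar collagen chains, fell in STZ vehicle, by 0.82 (limma adjusted p = 0.0119) and 0.54 (adjusted p = 0.0134) on the log2 scale. They are 2 of the 6 probe sets that passed in that comparison, a count that was 0 without the filter on low signal, and also 0 when the week 2 or week 3 STZ vehicle array or the week 3 normal array was left out. The summed signal of all 9 fibroblast markers was 30670 to 35440 in STZ FK1706, 27910 to 33070 in STZ vehicle and 33170 to 43140 in normal pools. Adipocytes are known as a rich source of lipogenic transcripts, and 7 of 9 measured adipocyte markers, among them Fabp4, Plin1, Lep and Pparg, were under the filter on low signal. The summed signal of the 9 adipocyte markers was 1020 to 1099 in STZ FK1706, 991.2 to 1058 in STZ vehicle and 1044 to 1149 in normal pools. The 2 above the filter went opposite ways. Lpl was -0.19 and -0.36 from normal in STZ FK1706 and STZ vehicle (adjusted p = 0.722 and 0.479), and Cidea was 0.05 and 0.11 (adjusted p = 0.934 and 0.819). Skeletal muscle markers varied from pool to pool, with a summed signal of 2711 to 4444 in STZ FK1706, 2673 to 4620 in STZ vehicle and 3306 to 6982 in normal pools. The 9 tested muscle genes had a median of -0.63 for STZ FK1706 minus normal, with -0.28, -0.82 and -0.67 by week. For STZ vehicle minus normal it was -0.41, with 0.33, -1.9 and 0.11 by week. These medians lay farther below 0 than those of the members, and 0 muscle genes passed. The part of fibroblast, fat and muscle content in the member differences was not tested.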

How the data were processed

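Expression was measured on 9 one-colour arrays, each a pool of 5 rats. The deposited values are a linear intensity per probe set, made by the authors with MAS5 per the submitters' processing notes, with no version named there. They were not on one level (2% trimmed mean 360.8 to 533.9 per array, array to array r 0.969 to 0.981), so the intensities were quantile normalized, 18.4 signal units (the 10th percentile) were added, and log2 was taken. Before that step, all probe sets together were shifted by a median log2 difference of -0.17 for STZ FK1706 minus normal, -0.10 for STZ vehicle minus normal and -0.07 between the STZ groups, and differences are given relative to those shifts.

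Of 15923 probe sets, 57 were controls. Of the rest, 12783 had 1 symbol, 312 several and 2771 none, and 12748 were matched by Entrez identifier to the GRCr8 gene table, with 0 symbols differing. The 9520 probe sets whose mean reached the 40th percentile entered a model of group plus week (limma 3.58.1, R 4.3.3), with trended empirical Bayes moderation and 4 residual degrees of freedom. Slopes over weeks had 3. Tests were two-sided with Benjamini-Hochberg adjustment over all 9520, and a probe set passed at an adjusted p under 0.05. The fold is on the log2(signal + offset) scale. Week was a block because every group was sampled once in each week, and same-week arrays' deviations from their group means correlated across probe sets with r from -3.63e-05 to 0.32. The number of arrays limits the precision. The fit was tested on simulated data with known differences, 50 probe sets at each fold. Of 1.3-fold changes it recovered 28% for STZ vehicle minus normal, 42% for STZ FK1706 minus normal and 40% between the STZ groups. Of 2-fold changes it recovered 100%, 96% and 98% in the same order. Most true changes of the members' size would thus have been missed even there.

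The members and lists were chosen with earlier results of these data known. All member probe sets are given. Outside them, list genes come from the 4 with the largest moderated t per comparison, and the like genes from the 2 with the highest r per member. The adipocyte markers under the filter, the fibroblast markers Dcn, Lum, Mgp and Pdgfra and the Schwann cell markers Mbp and Drp2 were named after their values were seen. Levels of different probe sets were not compared, except to name those that weigh most in the summed signals, and probe sequences were not used here.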

Additional observations from a re-analysis of the deposited data

How the results depend on the processing

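Values were recomputed under 21 alternatives, except that a probe set dropped by the 60th percentile filter or by taking 1 probe set per gene has no value there. Of 1232 member values, 1170 kept their direction and their side of the threshold, 54 took the opposite sign without passing in either setting, and 8 passed only on the deposited scale. That scale carries the downward shift of all signals, and it gave STZ FK1706 minus normal -0.59 for Elovl6 (adjusted p = 0.0317), -0.67 for Dgat2 (0.0317), -0.55 for Scd (0.0345) and -0.53 for Me1 1370870_at (0.0363), and the average of both STZ groups minus normal -0.44, -0.60, -0.46 and -0.49 for the same probe sets (adjusted p = 0.038, 0.019, 0.0326 and 0.0222). Dgat2, Me1 1370870_at, Elovl6, Scd, Fads1 and Fads2 stayed below normal in both STZ groups under all 21. The number of members below normal ran from 12 to 15 for STZ FK1706 and from 12 to 14 for STZ vehicle over the 20 alternatives other than 1 probe set per gene, always counted over all 15 probe sets whether or not they passed the filter, and the member median from -0.37 to -0.18 and from -0.28 to -0.14 in the same comparisons. These summaries over members were added after seeing the data.

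The count of all probe sets passing for STZ vehicle minus normal, 6 in the reported fit, was 12 on the deposited scale, 0 with no filter on low signal, 0 with no trend in the prior and 1 with no replicate block (week left out). It was 0 to 11 when 1 array was left out, and 1, 2 and 0 without weeks 1, 2 and 3. For STZ FK1706 minus normal, 0 as reported, it was 1 with trimmed mean scaling, 89 on the deposited scale, 2 with a filter at the 60th percentile, 1 with 1 probe set per gene, 0 with no replicate block, 0 to 1 with 1 array left out and 2 without week 2. For the average of both STZ groups, 8 as reported, it was 131 on the deposited scale, 13 with an offset at the 25th percentile, 0 with no filter, 0 with no trend, 1 with no replicate block, 0 to 23 with 1 array left out and 0 without week 3. For weeks, 5 as reported, it was 1 with trimmed mean scaling, 5936 on the deposited scale, 0 with no filter and 0 with no trend. For STZ FK1706 minus STZ vehicle it was 0 in every setting, with 293 to 450 at unadjusted p under 0.05 when 1 array was left out. Apart from the deposited scale, the cause of these moves was not tested. A member that did not pass is not shown to be unaltered.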
